A study of Mus musculus with 2 samples.

Results

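Macrophages and neutrophils each make a set of secreted and surface products that T cells are not known for. The genes described here are the neutrophil granule genes Lcn2 and Ngp and the macrophage product genes C1qc, Lyz1, Fcer1g, Marco and Msr1. They were chosen by name: a probe entered when its single platform gene symbol was in this list. All 7 genes were found, each with 1 probe, among 4331 genes measured. The RNA was that of CD4+ alpha beta T cells taken from spleens of 2 kinds of mice, LatY136F and wildtype, enriched with anti-CD4 magnetic beads and then sorted. In LatY136F mice a tyrosine of Lat, the adaptor that links the T cell receptor to downstream signalling, is replaced by phenylalanine; wildtype mice carry the unaltered gene. Both RNAs were hybridised together on each of 2 arrays, in separate colours, with the dyes reversed between the arrays. The sources used here do not give age, number of mice or pooling, nor whether the arrays hold separate RNA extracts.

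Lcn2 and Ngp encode proteins stored in the specific granules that neutrophils load as they mature in bone marrow. Lipocalin 2 binds bacterial siderophores and so withholds iron, and Ngp, the neutrophilic granule protein, is related to cathelicidins and cystatins. The macrophage set covers several tasks of phagocytosis: C1qc is a chain of complement C1q, lysozyme cleaves bacterial cell walls, Fcer1g is the signalling chain of activating Fc receptors, and Marco and Msr1 are class A scavenger receptors that bind bacteria and modified lipoproteins. Fcer1g is used by neutrophils, mast cells and natural killer cells as well, and neutrophils also carry lysozyme, so neither gene marks macrophages alone.

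For each probe and array the data are a single log ratio, with no signal of either channel, so the level of a gene in either RNA, and the brightness of its probe, are unknown. All values below are log2 ratios of LatY136F over wildtype, each array centred on its median, with the sign of array 2 turned; ± gives 0.5 times the difference between the 2 arrays. The 2 readings behind them are likely and not certain: that the deposited values are log10 ratios, and that they are channel 2 over channel 1. If the direction is the other way round, every "higher" below is "lower". The arrays form 1 comparison (n = 1 pair), which allows no test of the genotypes, and the difference between them may be technical only. A gene is called higher or lower when its ratio was at least 2-fold the same way on both arrays.

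Promoter sequences of 4 of the genes are shown because Lcn2, Ngp and C1qc were higher in LatY136F cells and Marco was not. Each run is 250 bases, from RefSeq on GRCm38.p6, written 5′ to 3′ along the gene. For Lcn2, Ngp and Marco it ends directly before the gene's annotated start. The C1qc window runs past that gene's annotated start at 136892936, so its last bases lie within the gene. Capitals mark matches, on either strand, to GAGGAA, a core bound by the myeloid factor PU.1, or to TTNNGNAA, a core of the kind C/EBP factors bind.
Lcn2, chr2:32387740-32387989, minus strand: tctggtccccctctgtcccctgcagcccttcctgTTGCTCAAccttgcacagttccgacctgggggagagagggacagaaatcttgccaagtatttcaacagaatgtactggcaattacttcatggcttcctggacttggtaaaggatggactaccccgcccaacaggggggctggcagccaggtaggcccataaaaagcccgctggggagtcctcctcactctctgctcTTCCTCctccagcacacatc
Ngp, chr9:110419558-110419807, plus strand: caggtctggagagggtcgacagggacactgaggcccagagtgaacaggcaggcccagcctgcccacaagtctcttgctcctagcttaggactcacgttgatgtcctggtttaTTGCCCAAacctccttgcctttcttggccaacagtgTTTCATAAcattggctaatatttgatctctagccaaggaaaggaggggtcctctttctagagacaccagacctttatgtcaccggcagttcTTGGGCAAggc
C1qc, chr4:136892915-136893164, minus strand: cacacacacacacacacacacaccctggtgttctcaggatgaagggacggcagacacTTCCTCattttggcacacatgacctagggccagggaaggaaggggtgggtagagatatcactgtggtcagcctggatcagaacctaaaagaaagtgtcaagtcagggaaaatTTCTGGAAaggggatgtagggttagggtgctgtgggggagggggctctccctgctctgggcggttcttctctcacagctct
Marco, chr1:120505025-120505274, minus strand: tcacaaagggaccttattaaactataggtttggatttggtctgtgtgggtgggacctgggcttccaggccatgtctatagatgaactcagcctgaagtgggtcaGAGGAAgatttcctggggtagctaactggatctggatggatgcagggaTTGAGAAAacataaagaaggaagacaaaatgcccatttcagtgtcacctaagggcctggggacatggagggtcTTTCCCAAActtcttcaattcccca
The Lcn2 window held 1 match to each core, the C1qc window 1 match to each, and the Ngp window 3 matches to TTNNGNAA and none to GAGGAA. Marco held 1 match to GAGGAA and 3 to TTNNGNAA, the last 2 of which overlap. Of the 6 genes found in the promoter table, 5 had TTNNGNAA (all but Fcer1g) and 3 had GAGGAA (C1qc, Marco and Lcn2), against 36.8% and 23.3% of all 32851 promoter windows of this length. TATAAA, the TATA box core, was in none of the 6 windows and in 12.4% of all windows. The matches did not divide the genes that were higher from Marco, and they describe letters, not binding.

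Of the 7 genes, 5 were higher in LatY136F cells and none was lower. They were both neutrophil granule genes and 3 of the 5 macrophage product genes. Over all 4331 genes, 4.20% were called higher and 0.970% lower, while 1.73% were at least 2-fold in opposite directions on the 2 arrays. The macrophage set split: the secreted products and the Fc receptor chain were higher, while the scavenger receptors Marco and Msr1 had means slightly below 0 and were not called. In RNA from a bulk cell population, a higher ratio from more cells of another type and one from more RNA per cell cannot be told apart.

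Lcn2 had a ratio of 2.92 on array 1 and 3.37 on array 2. Its mean of 3.14 ± 0.22, 8.83-fold higher in LatY136F cells, ranked 19th of 4331 genes from the highest. Both arrays placed Lcn2 above each of the other 6 genes.

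Ngp stood at 2.66 on array 1 and 2.34 on array 2, a mean of 2.50 ± 0.16 or 5.65-fold higher, at rank 29. On array 2 Ngp lay below C1qc, and on array 1 above it, so the order of these 2 genes is not settled by the arrays.

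C1qc, the C chain of C1q, had ratios of 2.56 and 2.40 on arrays 1 and 2. The mean of 2.48 ± 0.08, 5.57-fold higher, ranked 31st of all genes. C1q starts the classical complement pathway and also tags dying cells for uptake.

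Lyz1 had ratios of 2.36 on array 1 and 2.19 on array 2, a mean of 2.27 ± 0.09 or 4.84-fold higher. Lyz1 encodes lysozyme P of mouse, and its neighbour Lyz2 encodes the nearly identical lysozyme M, the form typical of macrophages. Lyz2 was not measured separately here, so the Lyz1 probe may also read Lyz2 RNA and the assignment is uncertain.

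Fcer1g gave 1.56 on array 1 and 1.45 on array 2, with a mean of 1.503 ± 0.05 (2.83-fold higher). It had the smallest difference between the arrays of the 7 genes, and the smallest ratio of the 5 genes that were called.

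Marco had a ratio of 0.03 on array 1 and -0.71 on array 2, a mean of -0.34 ± 0.37. The arrays disagreed in sign, and 0.5 times their difference exceeded the size of the mean, so Marco had no direction here. Msr1 gave -0.06 on array 1 and -0.84 on array 2, a mean of -0.45 ± 0.39. Both Msr1 values were below 0, but array 1 was near 0 and neither array reached 2-fold. On array 2 the receptors were 1.64-fold (Marco) and 1.80-fold (Msr1) lower, while on array 1 they were 1.02-fold higher (Marco) and 1.04-fold lower (Msr1). The difference between the arrays was larger for 21.8% of all genes than for Marco and for 20.7% than for Msr1.

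**Figure D1:**
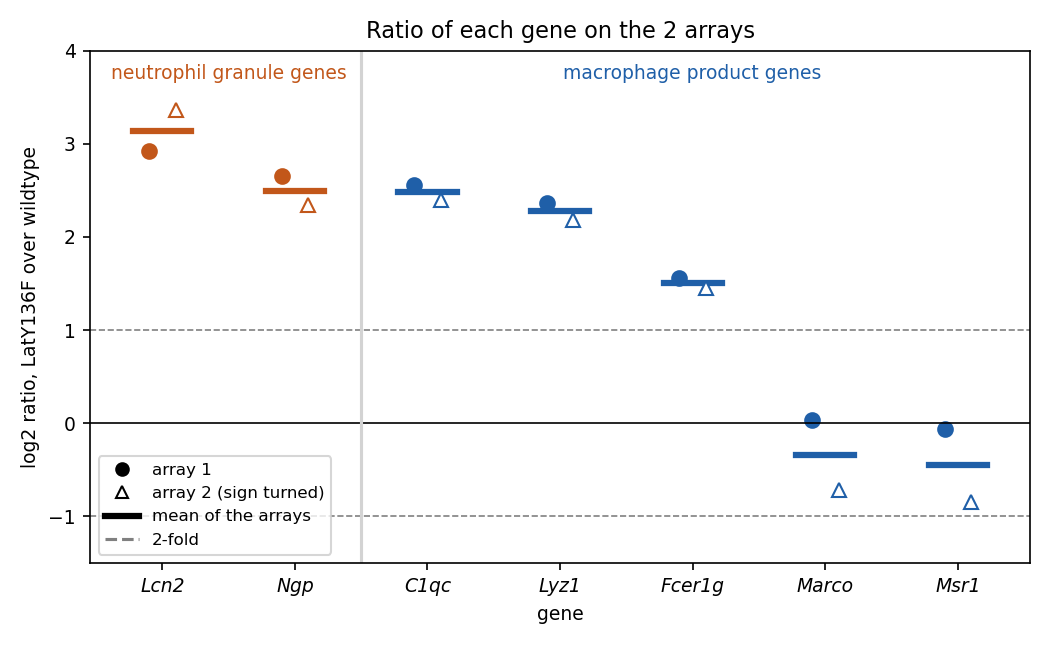
Log2 ratio of LatY136F over wildtype (vertical axis) for each gene (horizontal axis) on array 1 (filled circles) and array 2 (open triangles), with the mean of the arrays as a bar and 2-fold as dashed lines. Lcn2, Ngp, C1qc, Lyz1 and Fcer1g lie above 2-fold on both arrays; Marco and Msr1 lie near or below 0.

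The neutrophil granule genes had a median ratio of 2.79 on array 1 and 2.85 on array 2, against 1.56 and 1.45 for the 5 macrophage product genes. The difference of the medians, neutrophil minus macrophage, was 1.23 on array 1, 1.40 on array 2 and 1.32 for the mean of the arrays. With 2 genes against 5 and 1 comparison, this difference was not tested. It rested largely on the scavenger receptors: against C1qc, Lyz1 and Fcer1g alone, whose median was 2.27, it was 0.43 on array 1, 0.67 on array 2 and 0.55 for the mean. The median of C1qc, Lyz1 and Fcer1g exceeded that of Marco and Msr1 by 2.38 on array 1 and 2.97 on array 2. This split of the macrophage set was made after the ratios were seen and matches called against not called genes. A gap was thus built into it, and its size cannot be set against the difference between the sets.

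**Figure D2:**
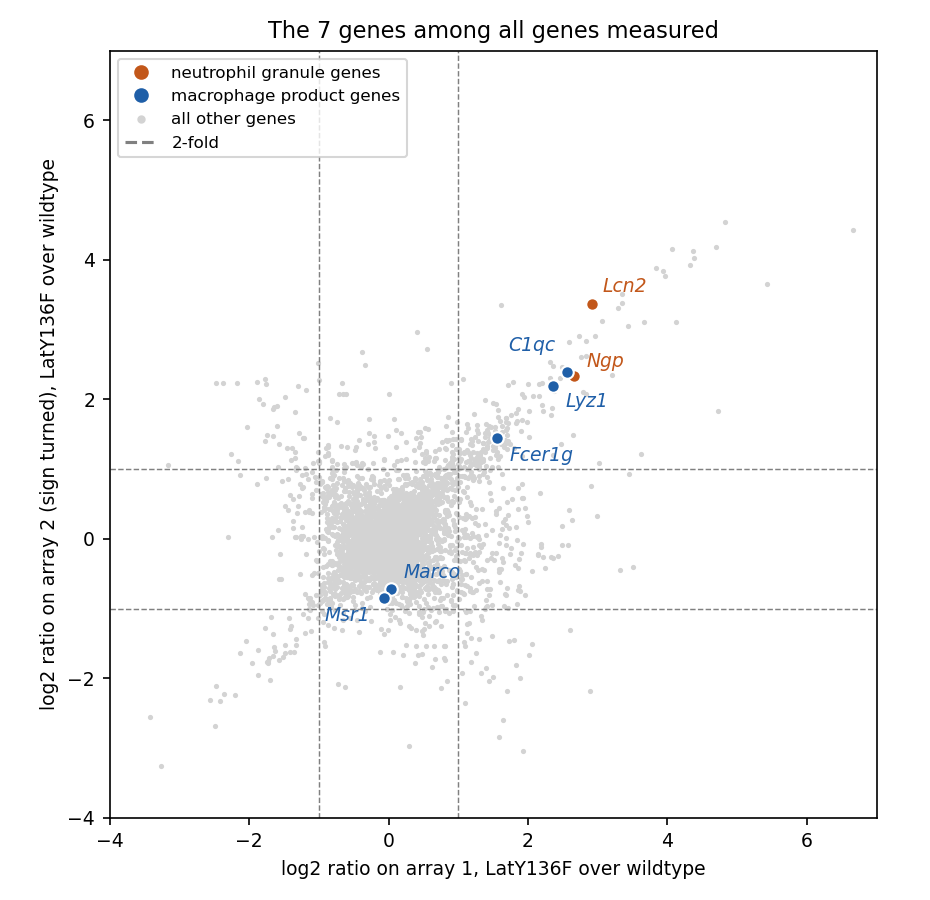
Log2 ratio of LatY136F over wildtype on array 1 (horizontal axis) against array 2 with its sign turned (vertical axis) for 4331 genes, with dashed lines at 2-fold. The neutrophil granule genes and C1qc, Lyz1 and Fcer1g lie in the upper right, above 2-fold on both arrays, and Marco and Msr1 lie inside the cloud of the other genes.

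By distance in the plane of the 2 array ratios, the genes nearest to the median point of Lcn2 and Ngp were the interleukin-12 receptor gene Il12rb1 (distance 0.05), the chemokine gene Ccl6 (0.08) and the T helper 2 transcription factor Gata3 (0.18). The nearest to the median point of the macrophage set were Mefv, the pyrin gene (0.05), Lhfpl2 (0.09) and the adhesion molecule gene Vcam1 (0.09). Within a distance of 0.5 lay 8 of 4324 genes for the neutrophil point and 100 for the macrophage point. A likeness over 2 arrays of 1 comparison says only that the ratios were of similar size.

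Beside Lcn2 and Ngp, 6 other neutrophil granule proteins were measured, of which 2, Slpi and Ctsg, were higher and none was lower. With Lcn2 and Ngp the list had 4 of 8 higher, of 24 listed, and a median of 1.92, against 0.00 for all genes. Of all genes, 4.20% were called higher and 0.970% lower. Over the 6 others the median was 1.18, but the arrays differed, with 2.10 on array 1 and 0.45 on array 2. Prtn3, the azurophil granule proteinase 3, gave 2.49 on array 1 and 0.19 on array 2, and Mmp9, a matrix metalloproteinase of neutrophil granules, 1.71 and 0.34; both are named after their values were seen. Slpi, a secreted protease inhibitor found in neutrophil granules and epithelia, had ratios of 4.36 and 4.13 on arrays 1 and 2 (mean 4.25 ± 0.12). Ctsg, the azurophil granule protease cathepsin G, stood at 2.70 and 2.33 (2.52 ± 0.19), and its 3 probes all exceeded 2-fold on both arrays. Mpo, the myeloperoxidase of the same granule type, gave 0.84 and 0.42 (0.63 ± 0.21) and was not called. Of the other granule genes fixed for naming, Elane, S100a8, S100a9, Camp and Ltf were not measured here.

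Neutrophil surface and regulator genes were also partly higher, 4 of 10 measured and none lower, with a median of 0.87 (0.60 on array 1 and 1.43 on array 2). For comparison, 4.20% of all genes were called higher and 0.970% lower. Itgb2l, an integrin beta 2-like gene, stood at 4.13 ± 0.20, the decoy interleukin-1 receptor Il1r2 at 3.62 ± 0.50 and the formyl peptide receptor Fpr2 at 3.37 ± 0.02. The chemokine Cxcl2, which attracts neutrophils, stood at 1.68 ± 0.31. Csf3r, the receptor for the granulocyte growth factor and a defining neutrophil gene, gave 0.37 on array 1 and -0.05 on array 2, so it had no direction.

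Among 23 monocyte and macrophage markers measured of 32 listed, 8 were higher and none lower, against 4.20% and 0.970% over all genes. Of their means 17 were above 0, against 2168 of 4331 over all genes, and 6 were below. The median was 0.97, and the same to 2 decimals over the 18 markers outside the 7 genes, of which 5 were higher. Mrc1, the mannose receptor of macrophages, led the list with 2.84 and 2.62 on arrays 1 and 2 (2.73 ± 0.11). Vcam1 stood at 1.52 ± 0.11 and Adgre1, the F4/80 antigen of tissue macrophages, at 1.49 ± 0.17. Cd14, a lipopolysaccharide co-receptor, gave 0.83 and 1.62 and missed the rule on array 1. Itgam, the CD11b integrin chain of macrophages and neutrophils, was not called at 0.29 ± 0.07; its 2 probes differed, and 1 of them had opposite signs on the arrays. The lowest means were those of Ly6c1 at -0.63 ± 0.02 and Ms4a7 at -0.61 ± 0.16, below 0 on both arrays and not called. Both are named after their values were seen. Csf1r and Cd68 were not measured here.

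Of the partners of C1qc, 1 was called. C1qa, the A chain, had ratios of 1.13 and 1.65 (mean 1.39 ± 0.26). C1qb, the B chain, gave 0.93 and 1.43 (1.18 ± 0.25) and missed the rule on array 1 by a small margin. C1qc thus had a larger ratio than C1qa and C1qb on both arrays. Of 21 complement genes measured, 4 were higher and 1 lower, shares above the 4.20% and 0.970% over all genes. Their median of -0.05 lay near the 0.00 of all genes. Cfp, properdin, which stabilises the alternative pathway convertase, stood at 1.55 ± 0.19 and Hc, complement C5, at 1.40 ± 0.21. Cr2, the complement receptor of B cells, was the lower gene at -1.76 ± 0.29.

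Of 15 scavenger receptor genes measured, Mrc1 alone was higher and none was lower, a share near the 4.20% called higher over all genes, and the median was -0.17, or -0.11 over the 13 genes other than Marco and Msr1. The arrays shared a sign for 8 of the 15, against 2416 of 4331 over all genes. The list is a broad one: it also holds Axl, Mertk, Tyro3 and Ager, and Cd5 and Cd6, which count among the CD4 T cell identity genes as well.

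Partners of Fcer1g gave a mixed picture. Of 20 Fc receptor and activating adaptor genes measured, 4 were higher and 1 lower, with a median of 0.79 (0.75 on array 1 and 0.42 on array 2). The shares over all genes were 4.20% higher and 0.970% lower. Fcgr3 and Fcgr1, activating receptors that pair with Fcer1g, were not called: Fcgr3 stood at 0.84 ± 0.13 and Fcgr1, the high-affinity IgG receptor, at 1.14 ± 0.71, its 2 probes giving 1.80 and 1.90 on array 1 but -0.04 and 0.91 on array 2. Fcgr2b, the inhibitory Fc receptor, was higher at 1.41 ± 0.11, as were the inhibitory receptor Pirb at 1.74 ± 0.09 and the lectin Clec4d at 1.44 ± 0.08. Tyrobp, the DAP12 adaptor that resembles Fcer1g in function, gave 0.92 and 1.02 (0.97 ± 0.05) and missed the rule on array 1. Fcer2a, the low-affinity IgE receptor of B cells, was lower at -1.14 ± 0.01.

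Lysosomal genes, the setting of lysozyme, were higher for 7 of 26 measured and lower for none, with a median of 0.50 (0.48 without Lyz1). For this list and those that follow, the shares over all genes were 4.20% higher and 0.970% lower. After Lyz1 came the cathepsins Ctsc at 1.49 ± 0.07, Ctse at 1.44 ± 0.09 and Ctsl at 1.36 ± 0.01, the tetraspanin Cd63 at 1.45 ± 0.18 and the membrane protein Lamp2 at 1.15 ± 0.07. Of 9 iron and siderophore handling genes, 3 were higher and none lower (median 0.52). Beside Lcn2 they were the iron exporter ferroportin, Slc40a1, at 1.69 ± 0.03 and Slc11a1, the phagosomal metal transporter of macrophages, at 1.40 ± 0.16. Of 17 myeloid growth factor receptors and transcription factors, 2 were higher and none lower (median 0.44). The 2 higher genes were Id2, an inhibitor of basic helix-loop-helix factors also active in lymphocytes, at 1.98 ± 0.05, and Nfe2, a factor of the megakaryocyte and erythroid lineages, at 1.92 ± 0.56.

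**Figure D3:**
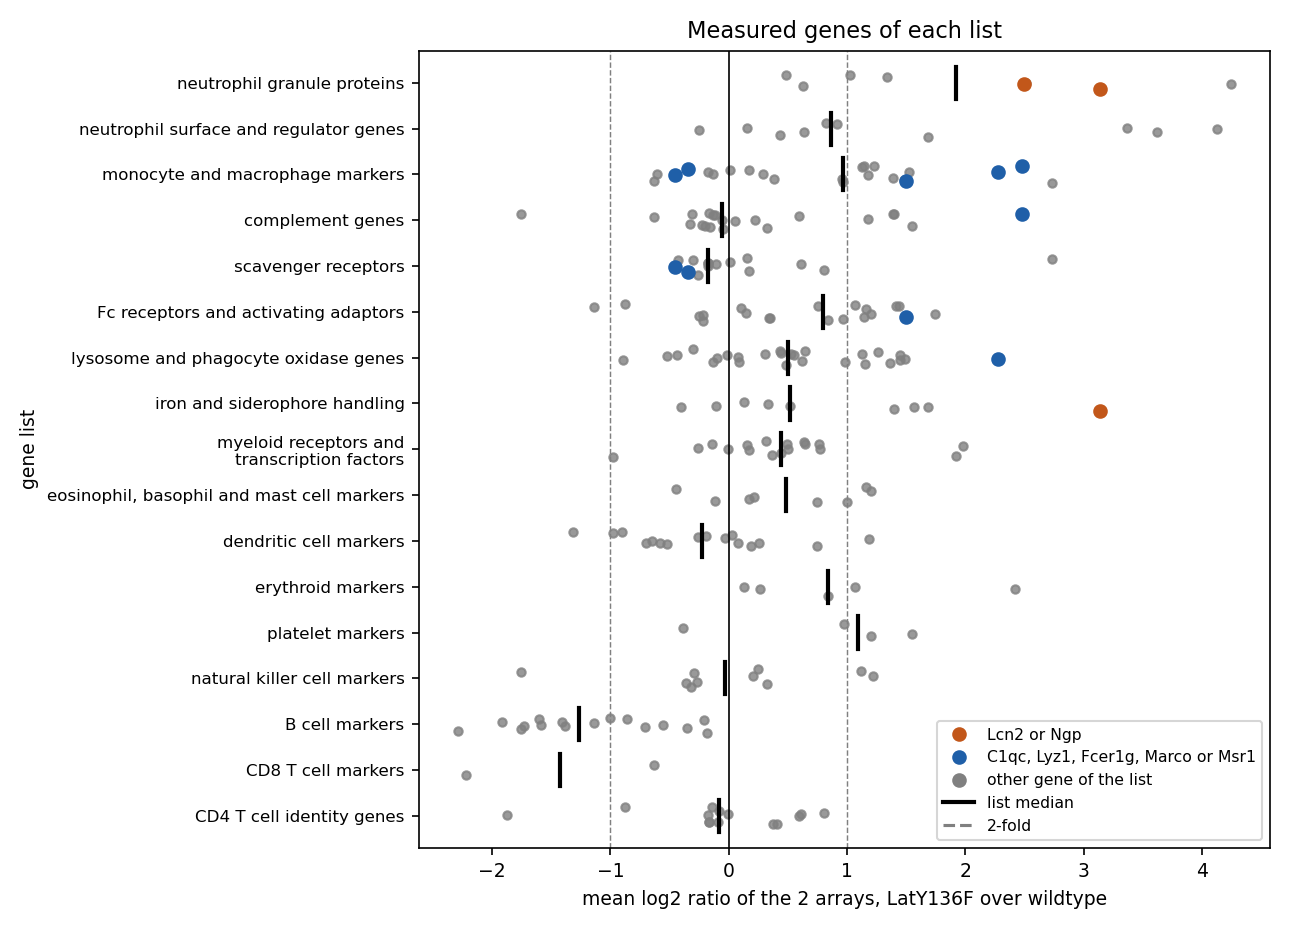
Mean log2 ratio of LatY136F over wildtype (horizontal axis) of each measured gene, by gene list (vertical axis); black bars are list medians and dashed lines mark 2-fold. The neutrophil granule list has the highest median (1.92, or 1.18 without Lcn2 and Ngp). On array 2 alone its median was 1.40, or 0.45 without these genes, below the 1.43 of the neutrophil surface and regulator list. The scavenger receptor list lies near 0 (-0.17), and the B cell list lies below 0 (-1.26).

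Markers of some further cell types differed beside the macrophage and neutrophil genes. The shares over all genes were 4.20% higher and 0.970% lower. In lists this short, 1 lower call is already a share above 0.970%. The part of these cell types in the ratios was not tested. Platelet markers had 2 of 4 higher (median 1.09; Pf4 at 1.55 ± 0.36), and erythroid markers 2 of 5 (median 0.84, with 1.13 on array 1 and 0.42 on array 2; Epor at 2.42 ± 0.06). Eosinophil, basophil and mast cell markers had none of 8 called (median 0.48). Dendritic cell markers had 1 of 16 higher, Cst3 at 1.19 ± 0.05, and 1 lower, Ly6d at -1.32 ± 0.07 (median -0.23). Of 16 B cell markers 9 were lower and none higher (median -1.26; Cd79b at -2.29 ± 0.18). Natural killer markers had 1 of 10 lower, Klrd1 at -1.75 ± 0.01 (median -0.03), and of the CD8 T cell markers Cd8b1 was lower at -2.22 ± 0.02. Genes of CD4 T cell identity lay near 0, with a median of -0.09 over 14 and 1 lower, Cd27 at -1.87 ± 0.09. Cd4 itself stood at -0.17 ± 0.09, Cd3e at -0.01 ± 0.13 and Lat at -0.17 ± 0.004; the substitution does not remove the Lat transcript, so its ratio does not check the genotype.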

How the data were processed

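Total RNA of LatY136F and wildtype CD4+ T cells was measured on 2 arrays, both RNAs on each. The authors deposited ratios whose range led to the log10 reading (the highest value of array 1 is exactly 2). Their base, direction, background correction and normalization are each not given in the sources used here. Array 2 was turned because its dyes were reversed, per the labels, and Pearson's r between the columns as deposited was -0.21 over 8014 probes (Spearman's rho -0.06). Multiplication by 3.32 gave log2 ratios, which were centred per array on the median. Of the probes, 4654 had 1 gene symbol in the platform annotation, 73 several and 3287 none. Probes of a gene were averaged. Simulated ratios served only to check that the code called planted changes, so they do not measure the accuracy of the calls on these arrays. No test of genotype was made; precision is limited by the number of arrays.

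The 7 genes, 17 gene lists (194 of 332 genes measured) and the naming rule were chosen with earlier results of these data known. The rule named the 7 genes and a set of common myeloid and T cell markers. It added up to 6 called genes per myeloid list furthest from 0, the furthest called gene on each side per other list, and the 3 nearest genes in likeness. Motifs were chosen after the ratios were seen. Alternatives covered single arrays, centring, scaling, probes, direction, log base and thresholds. Python 3.11.15, pandas 2.3.3 and numpy 2.4.6 were used.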

Additional observations from a re-analysis of the deposited data

How the results depend on the processing

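Turning the sign of every ratio reversed each called value. The neutrophil median became -2.82, the macrophage median -1.503 and their difference -1.32; Lcn2 became -3.14, Ngp -2.50, C1qc -2.48, Lyz1 -2.27 and Fcer1g -1.503, and the counts called higher became 0. Read as log2, the deposited values gave a neutrophil median of 0.85, a macrophage median of 0.45 and a difference of 0.40, with 0 of the 7 genes, 1 neutrophil granule protein and 0 macrophage markers called higher, so every fold rests on the log10 reading. The macrophage median of 1.503 is the value of Fcer1g, and it moved with the genes included. It was 0.58 without Lyz1, 0.97 without Fcer1g, 2.27 without Marco and Msr1, and 1.09 as a mean. The difference was then 2.24, 1.85, 0.55 and 1.73. Leaving out Fcer1g, or Marco and Msr1, was chosen after seeing the data. A 3-fold threshold left 4 of the 5 called genes, as Fcer1g lost its call, and 3 macrophage markers of 8. The arrays taken singly gave neutrophil medians of 2.79 to 2.85, macrophage medians of 1.45 to 1.56 and differences of 1.23 to 1.40. They called 5 of the 7 genes, 4 to 6 neutrophil granule proteins and 9 to 11 macrophage markers. Centring, scaling, choice of probe and values of exactly 0 kept all called directions of the 7 genes. No paired analysis was possible because the arrays are 1 dye-reversal pair. The table holds no signals, so the limit set by signal over background is unknown.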
